A study of Mus musculus with 86 samples.

Results

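JGT04, a hot-water extract of peony root and liquorice root mixed at a weight ratio of 1 to 2, was given at 400 mg/kg to mice that also received dexamethasone, and the RNA of their soleus muscle is set here against that of mice given dexamethasone alone. The libraries were chosen by their labels and number 8 of the 86 in the series, 4 in the JGT04 400 group and 4 in the DEX group, each from 1 mouse. All mice were male C57BL/6N animals aged 10 weeks, and both groups were injected with dexamethasone at 25 mg/kg each day for 10 days. JGT04 400 mice were gavaged with the extract in buffer that held 0.5% carboxymethylcellulose, whereas DEX mice were gavaged with buffer, so the extract and its vehicle cannot be told apart. Further soleus groups used below are JGT04 at 100 mg/kg and the 1 to 1 mixture JGT03 at 400 mg/kg, both with dexamethasone and 5 mice each, and 5 non-treated mice given buffer by both routes. The spread between mice was estimated with other soleus groups as well, all given dexamethasone. They received JGT02, the 2 to 1 mixture, at 100 or 400 mg/kg, JGT03 at 100 mg/kg or resveratrol at 200 mg/kg. Gastrocnemius was sampled as well, with 4 JGT04 400 and 4 DEX libraries. The study asks whether these extracts lessen the muscle wasting that dexamethasone brings on.

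Soleus is a postural hindlimb muscle rich in slow, oxidative fibres. Dexamethasone binds the glucocorticoid receptor, and in muscle glucocorticoids are known to raise ubiquitin ligases such as atrogin-1 and MuRF1 and to slow protein synthesis, with fast fibres usually affected more than slow ones. Peony and liquorice both contain glycosides and flavonoids that the gut and liver process, and muscle itself carries a circadian clock, a protein folding system and a dense capillary bed.

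Levels are given in CPM, a gene's counts per M (10 to the power of 6) counts of its library, after scaling between libraries. The totals were 24.9 to 29.5 M counts in JGT04 400 libraries and 18.8 to 26 M counts in DEX libraries. Myh7, the slow myosin heavy chain, reached 6010 to 6220 CPM in JGT04 400 soleus and 4220 to 8320 CPM in DEX soleus, so the libraries carry the defining marker of the labelled muscle. The median rank correlation of DEX mouse 4 with its own group was 0.9599, against at least 0.9895 for the other DEX libraries. Its 17 measured macrophage and monocyte markers summed to 571 CPM, against 44.1 to 75.8 CPM in JGT04 400 libraries and 52.8 to 83.9 CPM in the other DEX libraries. Its 10 MHC class II genes summed to 127 CPM, against 8.8 to 19 CPM in JGT04 400 libraries and 9.2 to 12 CPM in the other DEX libraries. Counts of gene groups that moved with this mouse are given with and without it. In bulk muscle, fewer cells of a type and less RNA per cell cannot be told apart.

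Of 14696 genes tested, 3261 changed between JGT04 400 and DEX soleus at an adjusted p under 0.05, which is 22.2% of them. The 1324 genes that rose make up 9.01% of those tested and the 1937 that fell 13.2%. A rise or fall given below as a value ± SE is a log2 fold change, and its median over all genes was -0.02. Without DEX mouse 4, 1481 of 14788 genes passed, which is 10%, with 628 higher (4.25%) and 853 lower (5.77%). Of the 3261 genes, 1316 passed in both fits and 3216 had the same sign. The 4 JGT04 400 libraries lay above all 4 DEX libraries for 1160 genes (7.89%) and below them for 1183 (8.05%). These shares are the background against which the counts of each gene group below should be read. The spread came from all soleus groups together, and a fit of the 8 libraries alone called 38 genes, 6 higher and 32 lower, or 625 with DEX mouse 4 left out, while a fit of all soleus libraries, the pair that stood apart included, called 678.

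**Figure D1:**
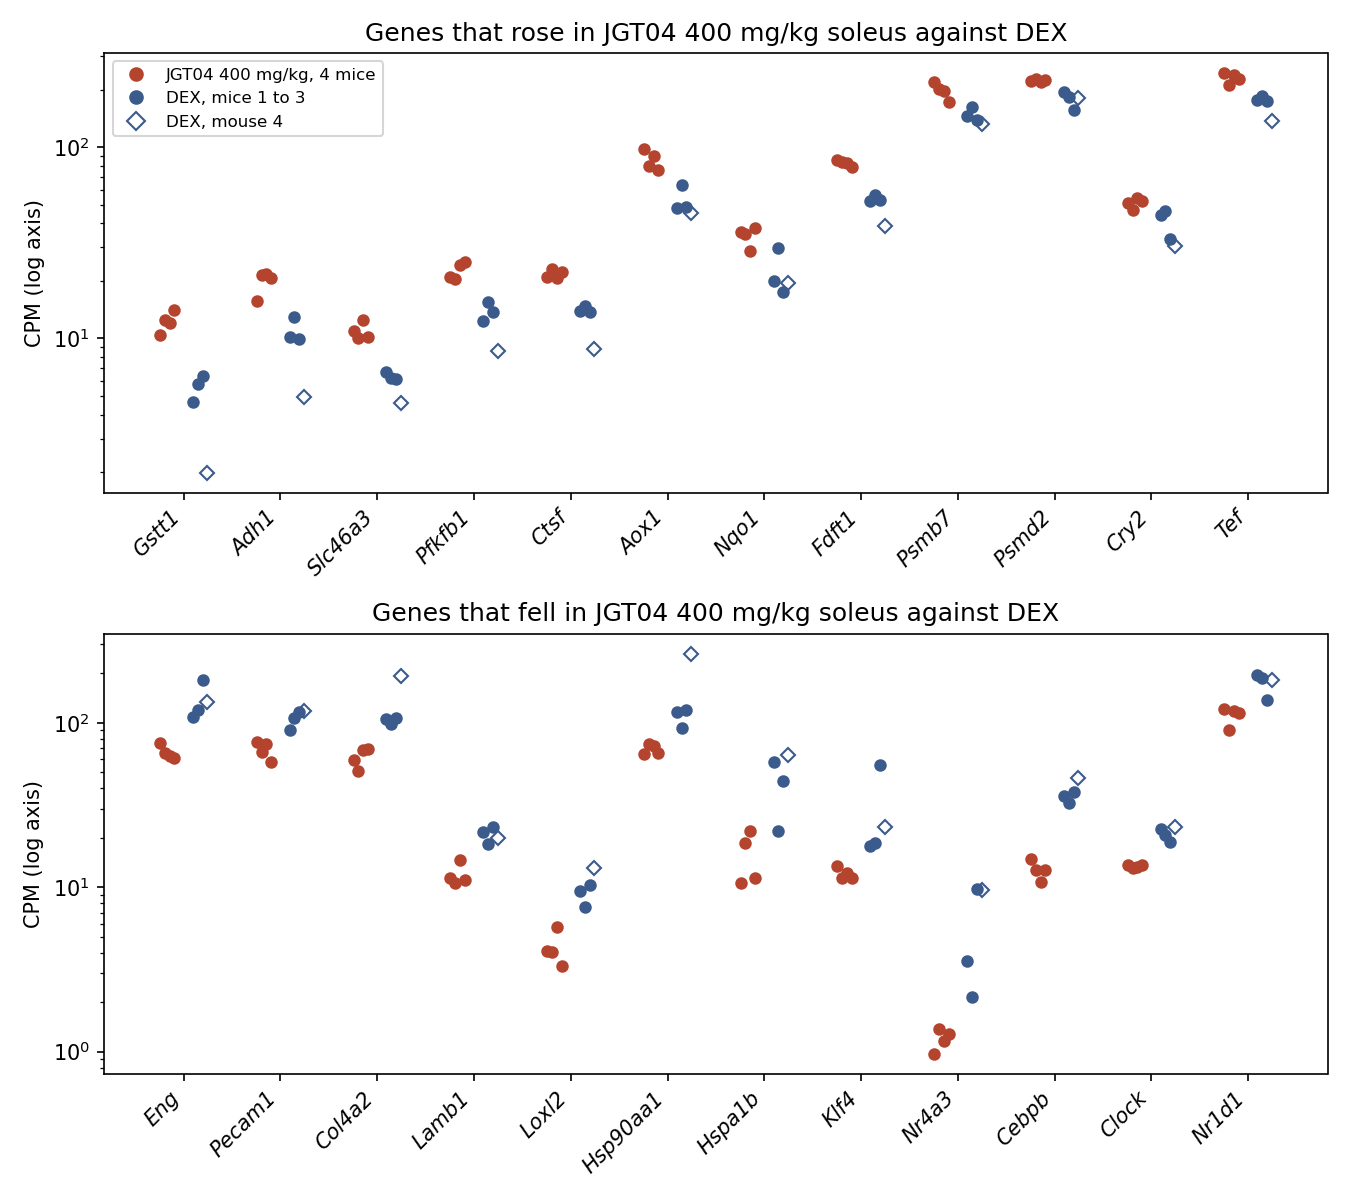
Levels of genes named in the text in each soleus library, in CPM on a log axis, with the 4 JGT04 400 mice left of the 4 DEX mice and DEX mouse 4 marked. Gstt1 and Adh1 were higher in every JGT04 400 library than in any DEX library, and Eng and Cebpb were lower in every one. For Gstt1, Adh1 and Cebpb this was a condition of being named.

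Several enzymes of detoxification and small-molecule metabolism rose. Gstt1, a theta-class glutathione transferase that conjugates small electrophiles, stood at 10.4, 12.5, 12.0 and 14.1 CPM in JGT04 400 soleus, against 4.67, 5.76, 6.39 and 1.99 CPM in DEX soleus. The groups did not overlap, and the lowest level was in DEX mouse 4. A lack of overlap was a condition for the 12 largest rises and 12 largest falls named here. It therefore adds no support for those genes. Its log2 fold change was 1.39 ± 0.21 (SE, n = 4 each, adjusted p = 3.72e-05), and 1.13 without DEX mouse 4, which also passed. The gene lies at chr10:75783813-75798584 on the minus strand of GRCm38. Gstt2 of the same family rose less, by 0.78 ± 0.18. Adh1, the class I alcohol dehydrogenase that also oxidises retinol, stood at 15.7, 21.4, 21.6 and 20.8 CPM in JGT04 400 soleus, against 10.2, 12.9, 9.91 and 4.97 CPM in DEX soleus. Every JGT04 400 library lay above every DEX library, with a log2 fold change of 1.07 ± 0.17 (adjusted p = 5.14e-05). Aox1, an aldehyde oxidase that acts on many drugs and on retinal, measured 98.2, 79.3, 89.9 and 76.2 CPM in JGT04 400 soleus, against 48.2, 63.4, 48.8 and 45.4 CPM in DEX soleus. It rose by 0.74 ± 0.15, again with no overlap. Nqo1, a quinone reductase, rose by 0.67 ± 0.15 (adjusted p = 0.00211). Of 36 antioxidant and detoxification genes measured, 7 rose and 4 fell, with a median of 0.06. Txnrd1, Hmox1 and Gclc were among those that fell. Without DEX mouse 4 the counts were 4 and 0. Prdx3, the mitochondrial peroxiredoxin, was among those that rose, at 0.35 ± 0.07.

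The Gstt1 promoter is shown because this gene had the largest rise after the uneven Lars2 and also passed with the listed order of the libraries as a term. The window runs from 250 bases before to 50 bases after the RefSeq start (GRCm38.p6, chr10:75797682-75797981, minus strand), and capitals mark a D-box (TTATGNAA, searched on both strands, and none of the 3 motifs used here contains another), the element bound by the clock output factors Dbp, Tef and Hlf, which starts 39 bases before the start site.
Gstt1: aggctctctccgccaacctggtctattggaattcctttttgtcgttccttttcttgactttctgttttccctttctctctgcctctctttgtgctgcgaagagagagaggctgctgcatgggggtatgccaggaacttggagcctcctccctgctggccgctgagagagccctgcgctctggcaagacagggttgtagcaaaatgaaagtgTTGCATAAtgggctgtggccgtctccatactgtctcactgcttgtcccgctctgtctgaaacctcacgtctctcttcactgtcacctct
This motif stands in 951 of 27025 promoter windows of the same length, or 3.52%, and its presence is a description of the sequence only.

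Other rises reached carriers and enzymes of sugar, sterol and lysosomal metabolism. Slc46a3, a lysosomal membrane carrier, stood at 11, 10.0, 12.5 and 10.2 CPM in JGT04 400 soleus, against 6.71, 6.22, 6.16 and 4.62 CPM in DEX soleus. The groups were well apart, and its log2 fold change was 0.88 ± 0.10 (adjusted p = 5.57e-07). Pfkfb1, a bifunctional enzyme that sets the level of fructose 2,6-bisphosphate, measured 21.0, 20.4, 24.1 and 25.2 CPM in JGT04 400 soleus, against 12.4, 15.6, 13.8 and 8.6 CPM in DEX soleus, a rise of 0.85 ± 0.13. Fdft1, squalene synthase, measured 85.4, 83.6, 82.6 and 79.1 CPM in JGT04 400 soleus, against 52.6, 55.9, 53.0 and 38.6 CPM in DEX soleus, a rise of 0.73 ± 0.12, and shares 14.3% of its sequence, counted as 31-base words, with other genes. Of 23 cholesterol synthesis genes measured 1 rose, Fdft1, and 3 fell, among them Srebf2, the factor that switches on the pathway, with a median of -0.04 over the list, and without DEX mouse 4 the counts were 1 and 1 and Srebf2 did not pass. Ctsf, a lysosomal cysteine protease, rose by 0.77 ± 0.11 with no overlap. The remaining members of the 12 largest rises were Zc3h6 at 0.81, Klhl33 at 0.84, Tmem53 at 0.75 and Lrrc61 at 0.74, of which Klhl33 did not pass without DEX mouse 4. The largest rise of all, Lars2, the mitochondrial leucyl-tRNA synthetase, was the most uneven. It measured 187, 469, 78.8 and 191 CPM in JGT04 400 soleus, against 68.6, 64.3, 59.7 and 48.4 CPM in DEX soleus, with a log2 fold change of 1.94 ± 0.48 (adjusted p = 0.00388). JGT04 400 mouse 3 lay barely above the DEX libraries and mouse 2 far above them. Lars2 also moved with the listed order of the libraries, as given below, and measured 155 to 377 CPM in resveratrol soleus.

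Some genes of protein breakdown rose in small steps. Of 33 proteasome subunits 11 rose and none fell, with a median log2 fold change of 0.15 against -0.02 over all genes, and without DEX mouse 4 the counts were 9 and 0 with a median of 0.17. Psmb7, a catalytic subunit of the core, measured 218, 201, 196 and 172 CPM in JGT04 400 soleus, against 145, 163, 138 and 132 CPM in DEX soleus. All JGT04 400 values lay above all DEX values, with a log2 fold change of 0.45 ± 0.10 (adjusted p = 0.00137). Psmd2, a base subunit of the regulatory cap with 31.6% of its words also found elsewhere, rose by 0.32 ± 0.07, and Psme4, the activator PA200, by 0.30 ± 0.07. Of 32 autophagy and lysosome genes 9 rose and none fell, with a median of 0.09, and without DEX mouse 4 the counts were 5 and 1. Map1lc3a, an LC3 protein of the autophagosome membrane, rose by 0.45 ± 0.10, and Ctsd, cathepsin D, by 0.36 ± 0.09. Of 24 atrophy ubiquitin ligases 5 rose and 3 fell, and without DEX mouse 4 the counts were 1 and 1. Ubr2, an N-degron ligase, measured 69.5, 70.2, 69.7 and 68.8 CPM in JGT04 400 soleus, against 59.1, 59.4, 60.2 and 50.6 CPM in DEX soleus, a rise of 0.28 ± 0.06 with very little spread. Mdm2, the ligase of p53, fell by 0.34 ± 0.07 on the log2 scale.

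Some mitochondrial genes encoded in the nucleus rose as well, and their number moved with DEX mouse 4. Of 76 nuclear oxidative phosphorylation genes 20 rose and none fell, with a median of 0.23, and 75 had a positive log2 fold change. Without DEX mouse 4, 4 rose and none fell, with a median of 0.13, a share near the 4.25% of all genes that rose in that fit. Cox6b1, a subunit of complex IV, measured 883, 748, 726 and 714 CPM in JGT04 400 soleus, against 487, 597, 587 and 385 CPM in DEX soleus, a rise of 0.58 ± 0.15 (adjusted p = 0.00618). Ndufa9 of complex I rose by 0.44 ± 0.11 and Sdhc of complex II by 0.40 ± 0.10, and for all 3 genes DEX mouse 4 was the lowest library while the other DEX libraries still lay below JGT04 400. Of the 15 mitochondrially encoded genes 0 passed by edgeR's test or DESeq2 and 0 had an unadjusted p under 0.05, with a median of -0.01. Of 72 mitochondrial ribosomal protein genes 16 rose and 1 fell, against 5 and 2 without DEX mouse 4. Mrpl9 of the large subunit rose by 0.36 ± 0.06 and Mrps2 of the small subunit fell by 0.32 ± 0.08 on the log2 scale, both with no overlap. Tfam, which packages and transcribes mitochondrial DNA, rose by 0.25 ± 0.06.

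Of 41 genes of fatty acid use 12 rose and none fell, with a median of 0.25, but without DEX mouse 4 the counts were 1 and 1. Slc25a20, the mitochondrial carnitine carrier, is one of those that rose, by 0.38 ± 0.09. Of 34 glycolysis and glycogen genes 5 rose, namely Pfkfb1, Gyg, Gys1, Pfkm and Pkm, and 5 fell, namely Slc2a1, Ppp1r3c, Hk1, Hk2 and Pgm1, and without DEX mouse 4 the counts were 2 and 3. Gyg, the primer protein of glycogen, rose by 0.43 ± 0.11, whereas Slc2a1, the basal glucose carrier, fell by 0.74 ± 0.17 on the log2 scale. Ppp1r3c, which brings a phosphatase to glycogen, measured 85.3, 107, 67.3 and 94.8 CPM in JGT04 400 soleus, against 155, 129, 147 and 91.3 CPM in DEX soleus. DEX mouse 4 overlapped the JGT04 400 libraries, and the log2 fold change was -0.56 ± 0.18, or -0.70 without that mouse, and did not pass on leaving out JGT04 400 mouse 1 or 3 or DEX mouse 1 or 3, at -0.54, -0.45, -0.46 and -0.49. Dgat2, which makes triglyceride, rose by 0.69 ± 0.17, and Elovl5, a fatty acid elongase, fell by 0.58 ± 0.13 on the log2 scale.

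**Figure D2:**
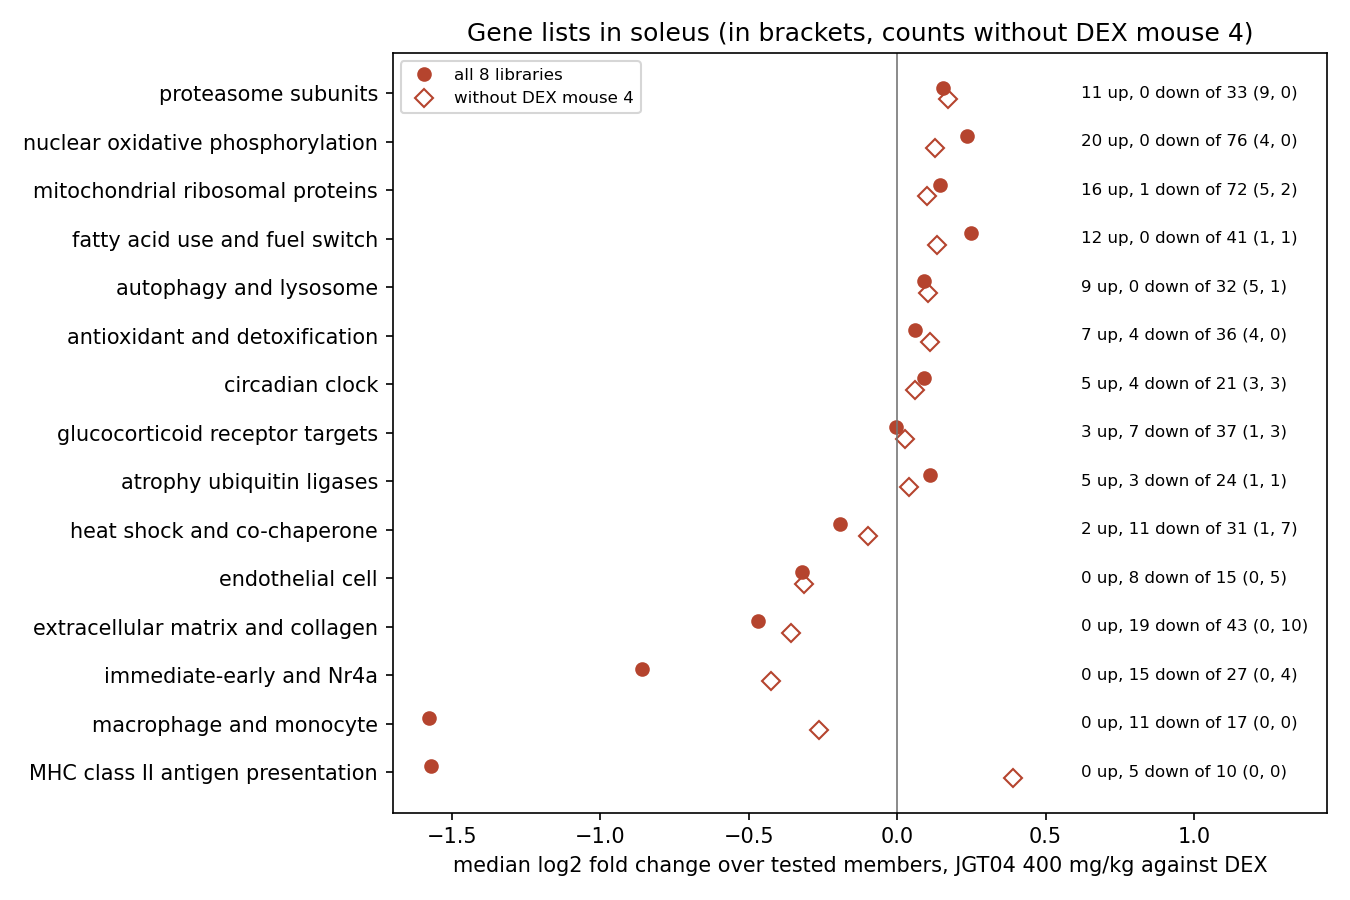
Median log2 fold change of each gene list, JGT04 400 over DEX soleus, with all 4 DEX mice and without DEX mouse 4, beside the number of members that rose and fell. The macrophage list sits at -1.58 with all DEX mice and at -0.26 without mouse 4, whereas the proteasome list sits at 0.15 and 0.17. With the listed order of the libraries as a term, which is not drawn, the medians were -1.24 and 0.02.

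Several blood vessel genes were lower in JGT04 400 than in DEX soleus. Eng, the endothelial TGF-beta co-receptor endoglin, measured 75.7, 65.2, 62.7 and 61.1 CPM in JGT04 400 soleus, against 109, 120, 181 and 134 CPM in DEX soleus. The highest level was in DEX mouse 3 and the groups were far apart, with a log2 fold change of -1.04 ± 0.13 (adjusted p = 2.31e-06). Eng lies at chr2:32646595-32682669 on the plus strand, where the gene Fpgs overlaps its exons on the other strand. Gpr56, an adhesion receptor, was singled out after its values were seen and measured 18.3, 16.1, 16.2 and 15.7 CPM in JGT04 400 soleus, against 28.1, 30.1, 37.0 and 42.0 CPM in DEX soleus, a log2 fold change of -1.05 ± 0.11 (adjusted p = 8.31e-08). Pecam1, an adhesion protein of endothelial junctions, fell by 0.65 ± 0.10 and Cdh5, VE-cadherin, by 0.63 ± 0.13 on the log2 scale, both with no overlap between the groups. Of 15 endothelial markers 8 fell and none rose, with a median of -0.32, and without DEX mouse 4, 5 fell with a median of -0.32. Their summed level was 697, 632, 616 and 517 CPM in JGT04 400 soleus, against 724, 860, 952 and 843 CPM in DEX soleus, so it did not overlap, and none of the markers was at 0. Apold1, an endothelial early-response gene, measured 2.52, 2.05, 2.72 and 2.86 CPM in JGT04 400 soleus, against 3.38, 5.38, 11.7 and 22.4 CPM in DEX soleus, highest in DEX mouse 4. Its log2 fold change was -2.08 ± 0.39, and -1.43 without that mouse, which also passed.

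Several matrix genes fell. Of 43 extracellular matrix and collagen genes 19 fell and none rose, with a median of -0.47, and without DEX mouse 4, 10 fell and none rose, with a median of -0.36. Col4a2, a chain of the basement membrane collagen, measured 59.0, 51.1, 68.5 and 69.3 CPM in JGT04 400 soleus, against 106, 97.6, 107 and 191 CPM in DEX soleus, a log2 fold change of -1.02 ± 0.16 (adjusted p = 4.17e-05). DEX mouse 4 was the highest, and without it the value was -0.74, which also passed. Lamb1, a laminin chain of the same membrane, measured 11.4, 10.6, 14.6 and 11 CPM in JGT04 400 soleus, against 21.6, 18.4, 23.2 and 20 CPM in DEX soleus, with mouse 4 in the middle of its group. Loxl2, which cross-links collagen and shares 46.2% of its words with Gm21451, fell by 1.24 ± 0.21 on the log2 scale. Adamts9, a secreted protease that cuts proteoglycans, measured 1.66, 1.53, 2.6 and 2.09 CPM in JGT04 400 soleus, against 3.73, 4.08, 4.34 and 26.8 CPM in DEX soleus, with a log2 fold change of -2.31 ± 0.39 and of -1.03 without DEX mouse 4, which passed. Prg4, the joint lubricant lubricin, was uneven, at 13.6, 11.7, 16.6 and 15.9 CPM in JGT04 400 soleus and 86.8, 30.4, 19.3 and 124 CPM in DEX soleus. Fn1, fibronectin, and Vcan, versican, passed with all DEX mice at -1.53 and -2.20 but not without mouse 4, at -0.48 and -0.88.

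Cells of the muscle interstitium showed smaller steps. Of 12 markers of fibro-adipogenic progenitors, the connective tissue precursors of muscle, 4 fell and none rose, and Pdgfra, their defining receptor, measured 8.52, 7.94, 8.58 and 6.36 CPM in JGT04 400 soleus, against 11, 11.1, 11 and 13.5 CPM in DEX soleus. Pdgfra fell by 0.57 ± 0.14 on the log2 scale, while the summed level of the 12 markers overlapped, at 1090 to 1670 CPM in JGT04 400 soleus and 657 to 1380 CPM in DEX soleus. Cd34, which marks these cells and endothelium, fell by 0.38 ± 0.10 on the log2 scale. Of 11 satellite cell markers 4 fell and none rose, among them Sdc4, a heparan sulfate proteoglycan, at -0.50 ± 0.12. Ccnd1, cyclin D1, fell by 1.04 ± 0.20 on the log2 scale and was the single one of 19 cell cycle genes that changed. Schwann cell and nerve markers varied widely within both groups, with sums of 155, 202, 522 and 161 CPM in JGT04 400 soleus and 912, 176, 788 and 117 CPM in DEX soleus, and 1 of 14, the myelination factor Egr2, fell with all libraries but did not pass on leaving out 5 of the 8 in turn, and without DEX mouse 4, 3 of the 14 fell. Adipocyte markers summed to 1030 to 1850 CPM in JGT04 400 soleus and 477 to 1270 CPM in DEX soleus, and 1 of 13, the lipid droplet protein Plin4, rose but did not pass without JGT04 400 mouse 4 or DEX mouse 4, at 0.50 and 0.51. The part of these cell types in the gene changes was not tested.

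**Figure D3:**
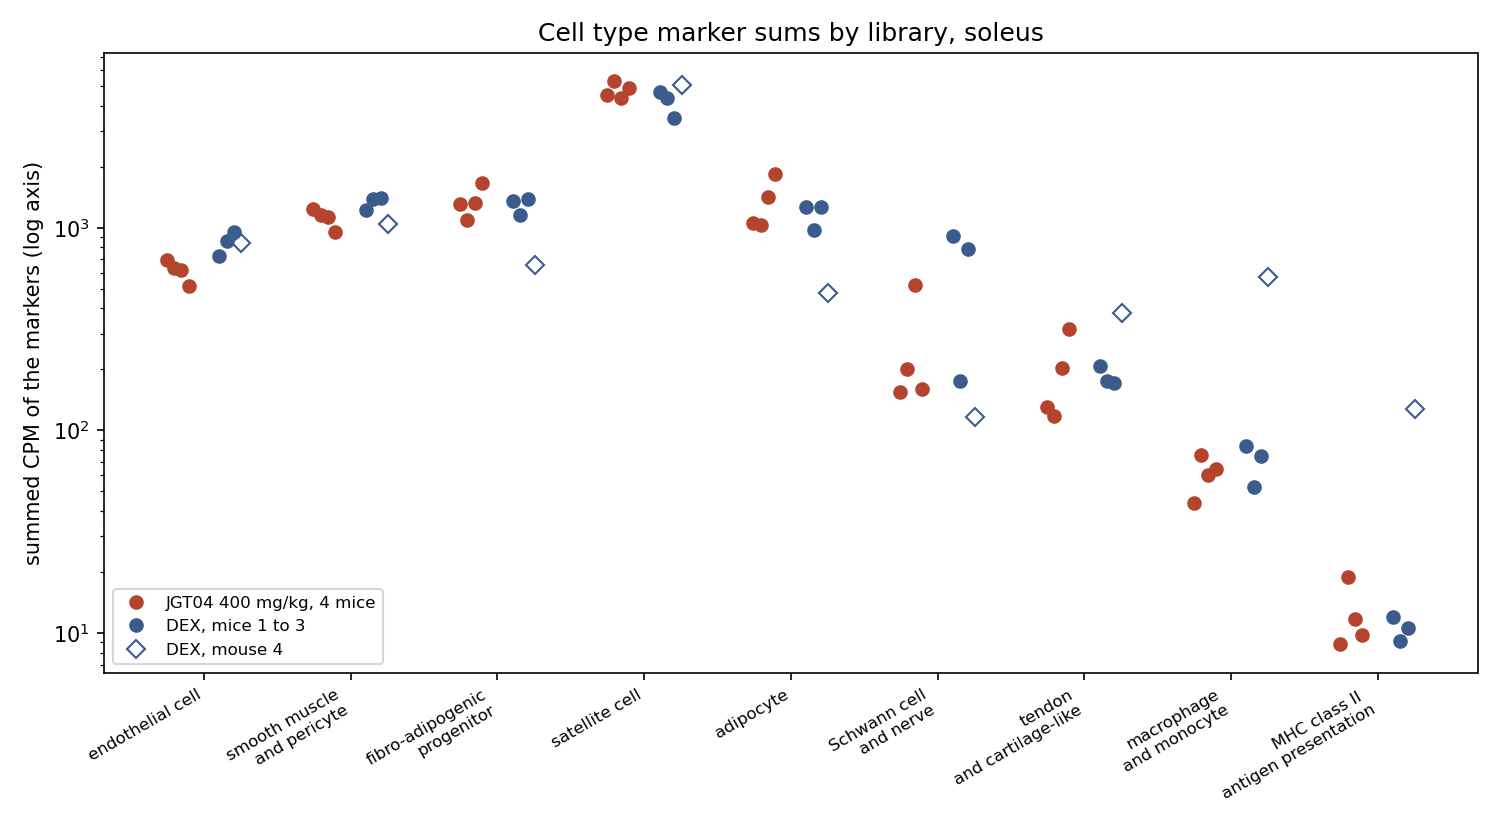
Summed CPM of the markers of each cell type in every JGT04 400 and DEX soleus library, on a log axis, with DEX mouse 4 marked. DEX mouse 4 lies far above all others for the macrophage and monocyte sum, at 571 CPM, and the endothelial sums of the groups do not overlap.

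Several transcription factors of the early stress response fell. Cebpb, a bZIP factor induced by glucocorticoids and cytokines, measured 14.9, 12.7, 10.8 and 12.7 CPM in JGT04 400 soleus, against 35.8, 32.6, 37.7 and 46.3 CPM in DEX soleus. The groups were far apart with or without DEX mouse 4, and the log2 fold change was -1.58 ± 0.24 (adjusted p = 2.94e-05). Cebpb lies at chr2:167688915-167690418 on the plus strand, with Tmem189 annotated on the other strand. Of 27 immediate-early and Nr4a genes 15 fell and none rose, with a median of -0.86, and without DEX mouse 4, 4 fell, with a median of -0.43. Nr4a3, an orphan nuclear receptor, measured 0.974, 1.37, 1.16 and 1.28 CPM in JGT04 400 soleus, against 3.58, 2.14, 9.72 and 9.55 CPM in DEX soleus, and fell by 2.39 ± 0.39 on the log2 scale. Klf4, a zinc-finger factor, measured 13.4, 11.3, 12.2 and 11.3 CPM in JGT04 400 soleus, against 17.8, 18.6, 55.5 and 23.1 CPM in DEX soleus. Here the high library was DEX mouse 3, and the log2 fold change of -1.26 ± 0.23 became -0.71 without that mouse, which also passed. Klf6 of the same family fell by 0.73 ± 0.15 on the log2 scale. Junb, an AP-1 subunit, measured 8.2, 10.9, 11.7 and 10.9 CPM in JGT04 400 soleus, against 13.5, 16.8, 21.8 and 145 CPM in DEX soleus, and its fall of 2.24 ± 0.43 on the log2 scale became -0.73 without DEX mouse 4, which did not pass.

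Several chaperones of the heat shock response fell. Of 31 heat shock and co-chaperone genes 11 fell and 2 rose, with a median of -0.19, and without DEX mouse 4, 7 fell and 1 rose, with a median of -0.10. Hsp90aa1, the inducible cytosolic Hsp90, measured 64.7, 74.3, 72.1 and 65.3 CPM in JGT04 400 soleus, against 117, 92.3, 120 and 262 CPM in DEX soleus. The groups did not overlap, and the log2 fold change was -1.10 ± 0.18 (adjusted p = 7.16e-05), or -0.66 without DEX mouse 4, which also passed. Hsp90aa1 has 51.4% of its words also in other genes, mostly the copy Gm5844. Hspa1b, an inducible Hsp70 whose sequence is 68% shared with Hspa1a, measured 10.6, 18.6, 21.9 and 11.4 CPM in JGT04 400 soleus, against 57.6, 21.9, 44.0 and 64.0 CPM in DEX soleus, and fell by 1.58 ± 0.32 on the log2 scale. Hsp90b1, the Hsp90 of the endoplasmic reticulum, fell by 0.51 ± 0.10 and Dnaja1, an Hsp70 co-chaperone, by 0.52 ± 0.09 on the log2 scale. Hspb6, a small heat shock protein abundant in slow muscle, went the other way, at 3250, 4200, 2950 and 3360 CPM in JGT04 400 soleus and 2490, 2740, 2190 and 2280 CPM in DEX soleus, a rise of 0.51 ± 0.12.

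Heat shock genes are switched on by the factor Hsf1, which binds inverted repeats of a short unit, and the promoters of a pair of members that fell are shown for the intact element in them. Both windows are 300 bases (GRCm38.p6, RefSeq starts), at chr5:149636287-149636586 on the minus strand for Hsph1 and chr9:18292017-18292316 on the plus strand for Chordc1. Capitals mark the heat shock element (GAA, TTC and GAA in a row with any 2 bases between, searched on both strands), which begins 36 bases after the Hsph1 start and, as 3 overlapping matches, 4 bases before the Chordc1 start.
Hsph1: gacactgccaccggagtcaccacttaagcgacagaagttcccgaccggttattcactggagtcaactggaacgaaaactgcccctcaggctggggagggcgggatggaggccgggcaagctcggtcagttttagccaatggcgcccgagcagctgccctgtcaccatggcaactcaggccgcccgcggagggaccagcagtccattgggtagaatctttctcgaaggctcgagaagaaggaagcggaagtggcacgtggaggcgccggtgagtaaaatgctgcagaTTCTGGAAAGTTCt
Chordc1: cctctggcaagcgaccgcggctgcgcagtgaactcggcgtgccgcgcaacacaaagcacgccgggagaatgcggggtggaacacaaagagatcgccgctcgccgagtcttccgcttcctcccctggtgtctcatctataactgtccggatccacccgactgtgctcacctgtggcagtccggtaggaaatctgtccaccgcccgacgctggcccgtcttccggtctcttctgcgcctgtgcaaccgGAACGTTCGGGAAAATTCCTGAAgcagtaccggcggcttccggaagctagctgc
Hsph1, an Hsp110 chaperone, fell by 0.51 ± 0.12 on the log2 scale, which did not pass without DEX mouse 4, and Chordc1, an Hsp90 co-chaperone, fell by 0.33 ± 0.08. Both were picked after their values were seen. The element is in 143 of 27025 promoter windows, or 0.529%, and in 4 of the 25 windows found for this list (Hspe1, Hsph1, Dnajb6 and Chordc1), 3 of them among the 11 members with a window called in either direction. Of those 3, Hsph1 and Chordc1 fell and Dnajb6 rose.

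Many immune and injury genes passed as lower in JGT04 400 soleus only while DEX mouse 4 was included. Chil3, a chitinase-like protein of activated macrophages that shares 41.5% of its words mainly with Chil4, measured 0.284, 0.886, 0.466 and 0.437 CPM in JGT04 400 soleus, against 1.04, 0.714, 1.36 and 71.9 CPM in DEX soleus. Ccl2, the monocyte chemokine, measured 0.122 to 0.466 CPM in JGT04 400 soleus, against 0.944, 0.378, 0.697 and 29.0 CPM in DEX soleus. Itgam, an integrin of macrophages, was at 28.1 CPM in DEX mouse 4 and at most 0.891 CPM in every other library of the comparison. The log2 fold changes of Chil3, Ccl2 and Itgam were -5.18, -4.46 and -4.16 with that mouse and -1, -0.91 and -0.60 without it, and none of them passed without it. The same held for Mt2, a metallothionein, at 258 CPM in DEX mouse 4, and for Ankrd1, a stretch-induced repressor of muscle genes, at 657 CPM there. Of 17 macrophage and monocyte markers 11 fell with all DEX mice and 0 passed without mouse 4 by edgeR's test, with 1 at an unadjusted p under 0.05, and of 10 MHC class II genes 5 fell with all DEX mice and 0 passed without mouse 4, with 0 at an unadjusted p under 0.05. Cd44, a hyaluronan receptor, Il4ra, the receptor of interleukin 4, and Fxyd5, an ion pump regulator, belonged to the 12 largest falls and had 99.4, 62.6 and 77.8 CPM in DEX mouse 4, against at most 9.95, 11.6 and 20.3 CPM elsewhere in the comparison. Of these Il4ra passed without that mouse, at -0.40. Nmrk2, a kinase that makes NAD precursors and rises in stressed muscle, was high in the same mouse but not there alone. It measured 24.3, 19.3, 15.5 and 18.8 CPM in JGT04 400 soleus, against 51.3, 43.7, 38.3 and 195 CPM in DEX soleus, and its log2 fold change of -2.08 became -1.19 without DEX mouse 4, which passed. Of 33 interferon response genes 6 fell and 1 rose, and without DEX mouse 4, 3 fell and none rose. Rsad2, the antiviral enzyme viperin, ran against the macrophage genes, since DEX mouse 4 had the lowest of the DEX levels, 2.45 CPM against 5.62 to 7.1 CPM, and JGT04 400 libraries had 2.05 to 3.53 CPM.

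Clock genes shifted in both directions. Clock, the partner of Bmal1 in the activating arm, measured 13.7, 13.1, 13.3 and 13.6 CPM in JGT04 400 soleus, against 22.5, 20.7, 18.9 and 23.2 CPM in DEX soleus. The JGT04 400 values were almost alike and all below the DEX values, with a log2 fold change of -0.67 ± 0.10 (adjusted p = 2.03e-05). Nr1d1, the repressor Rev-erb alpha, measured 121, 90.9, 118 and 114 CPM in JGT04 400 soleus, against 196, 186, 138 and 181 CPM in DEX soleus, and fell by 0.66 ± 0.14 on the log2 scale. Arntl, which encodes Bmal1, fell by 0.82 ± 0.21 on the log2 scale at levels of 1.41 to 3.52 CPM and did not pass without DEX mouse 4. Cry2, a repressor of Clock and Bmal1, rose by 0.41 ± 0.09, and the output factor Tef by 0.45 ± 0.10. Of 21 clock genes 5 rose and 4 fell, and without DEX mouse 4 the counts were 3 and 3. The hour at which the muscles were taken is not given in the sources used here, and its part in these genes was not tested.

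Tef is the clock output gene named above whose promoter window holds an E-box, and the window is shown for that reason (GRCm38.p6, chr15:81802423-81802722, plus strand). Capitals mark the E-box (CACGTG, the same on both strands), to which Clock and Bmal1 bind, 127 bases before the start.
Tef: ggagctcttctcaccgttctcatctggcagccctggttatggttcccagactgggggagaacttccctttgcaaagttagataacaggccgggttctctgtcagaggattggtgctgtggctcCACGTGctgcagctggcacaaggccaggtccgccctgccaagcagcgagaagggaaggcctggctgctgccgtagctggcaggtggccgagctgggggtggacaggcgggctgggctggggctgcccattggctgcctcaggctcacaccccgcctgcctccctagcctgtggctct
Its level was 244, 212, 238 and 228 CPM in JGT04 400 soleus, against 177, 186, 174 and 137 CPM in DEX soleus. E-boxes of this form are in 1957 of 27025 windows, or 7.24%, and in 5 of the 18 windows found for clock genes, 1 of them, that of Tef, among the 8 called members with a window.

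Of the 16 genes most used to follow muscle wasting and fibre type, 2 passed. Fbxo32, which encodes atrogin-1, measured 219, 229, 222 and 256 CPM in JGT04 400 soleus, against 182, 229, 137 and 160 CPM in DEX soleus, and passed narrowly as higher, with a log2 fold change of 0.38 ± 0.14 (adjusted p = 0.0469) that was lost on leaving out 7 of the 8 libraries. Trim63, which encodes MuRF1, measured 79.4, 89.2, 89.0 and 95 CPM in JGT04 400 soleus, against 97.9, 75.9, 94.6 and 122 CPM in DEX soleus, with a log2 fold change of -0.15 ± 0.10 that did not pass. Foxo1 and Foxo3, factors that drive both ligases, had log2 fold changes of 0.04 ± 0.08 and 0.12 ± 0.11 and did not pass. Klf15, a direct glucocorticoid receptor target, had 0.07 ± 0.12 and Pdk4, the kinase that shuts off pyruvate oxidation, -0.03 ± 0.39, and neither passed. Fkbp5, a chaperone of the receptor, had -0.30 ± 0.12 and did not pass. Tsc22d3, the target known as GILZ, measured 44.3, 46.9, 53.4 and 49.8 CPM in JGT04 400 soleus, against 39.3, 38.8, 40.3 and 38.3 CPM in DEX soleus, a rise of 0.31 ± 0.10 (adjusted p = 0.0202) that did not pass without DEX mouse 4 or JGT04 400 mouse 3. Of 37 glucocorticoid receptor targets 3 rose and 7 fell, and without DEX mouse 4 the counts were 1 and 3. Mstn, the growth inhibitor myostatin, at -0.24 ± 0.51, Igf1 at 0.18 ± 0.27, Ppargc1a, which encodes PGC-1 alpha, at -0.36 ± 0.17 and the deacetylase gene Sirt1 at -0.28 ± 0.11 did not pass. The 4 adult myosin heavy chains did not pass, at -0.08 ± 0.17 for Myh7, -0.08 ± 0.15 for Myh2, 0.14 ± 0.27 for Myh1 and -0.45 ± 1.18 for Myh4. Ppargc1a passed as lower, at -0.57, once DEX mouse 4 was left out.

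No gene passed between the higher and the lower dose of JGT04, and the lower dose was not tested against DEX here. Between JGT04 400 and JGT04 100 soleus 0 of 14696 genes changed by edgeR's test, with 1290 at an unadjusted p under 0.05, and DESeq2 also called 0, with 1295 unadjusted. Gstt1 averaged 12.3 ± 1.52 CPM at 400 mg/kg and 8.53 ± 1.52 CPM at 100 mg/kg (SD, n = 4 and 5), a log2 difference of 0.52 with a 95% interval of 0.13 to 0.90. Adh1 averaged 19.9 ± 2.8 and 15.6 ± 1.29 CPM at 400 and 100 mg/kg, with an interval of 0.04 to 0.66. Slc46a3 averaged 10.9 ± 1.13 CPM at 400 mg/kg and 10.8 ± 0.853 CPM at 100 mg/kg, with an interval of the log2 difference of -0.17 to 0.19. Eng averaged 66.2 ± 6.57 CPM at 400 mg/kg and 59.5 ± 7.13 CPM at 100 mg/kg, with an interval of -0.09 to 0.40. These intervals are for each gene by itself, before adjustment, and those of Gstt1 and Adh1 lie above 0 while those of Slc46a3 and Eng span it. Gstt1 and Adh1 were named for high levels in these same JGT04 400 libraries, which favours an interval above 0. Their adjusted p values by edgeR's test of dose were 0.463 and 0.524, so a dose effect on them was not shown.

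At the same dose of 400 mg/kg, JGT04 and JGT03 differ in the share of peony and liquorice, and 534 genes (3.63%) differed between their soleus groups, 247 higher (1.68%) and 287 lower (1.95%) in JGT04. This count ranged from 76 without JGT03 400 mouse 1 to 945 without JGT03 400 mouse 3, and it was 186 with only the groups compared and 2 with all libraries in the fit. Gstt1 averaged 12.3 ± 1.52 CPM in JGT04 400 soleus and 5.13 ± 1.55 CPM in JGT03 400 soleus, a log2 difference of 1.26 ± 0.20 (SE, adjusted p = 0.000458). Adh1 averaged 19.9 ± 2.8 CPM in JGT04 400 soleus and 9.35 ± 1.94 CPM in JGT03 400 soleus, a log2 difference of 1.09 ± 0.16 (adjusted p = 0.00017). The JGT03 400 levels of both enzymes were close to those of DEX soleus, which averaged 4.7 ± 1.94 CPM for Gstt1 and 9.5 ± 3.29 CPM for Adh1. Higher levels were not confined to JGT04. Resveratrol soleus, without extract, had 6.87 to 10.6 CPM of Gstt1 and 16.7 to 19.9 CPM of Adh1, above every DEX library. JGT03 100 soleus had 6.11 to 8.29 CPM of Gstt1 and 10.4 to 14.3 CPM of Adh1. Clock and Nr1d1 were lower in JGT04 400 than in JGT03 400 soleus, with log2 differences of -0.47 ± 0.09 and -0.68 ± 0.13, as were Hsp90b1 at -0.44 ± 0.09 and Tfrc, the transferrin receptor, at -0.81 ± 0.19, which did not pass without JGT04 400 mouse 2 or JGT03 400 mouse 1. Cyp26b1, which breaks down retinoic acid, averaged 5.49 ± 1.11 CPM in JGT04 400 soleus and 15.4 ± 4.92 CPM in JGT03 400 soleus, a log2 difference of -1.48 ± 0.31, and Efr3b, a membrane scaffold of a lipid kinase, differed by -0.79 ± 0.12. Gstt1, Adh1, Hsp90b1, Clock, Nr1d1, Cyp26b1 and Efr3b passed here whichever library was left out. Psmb7, Psmd2 and Nqo1 did not pass between the extracts, at -0.03 ± 0.09, -0.02 ± 0.06 and 0.01 ± 0.14. The comparisons of JGT04 400 with the lower dose and with JGT03 share the JGT04 400 libraries.

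**Figure D4:**
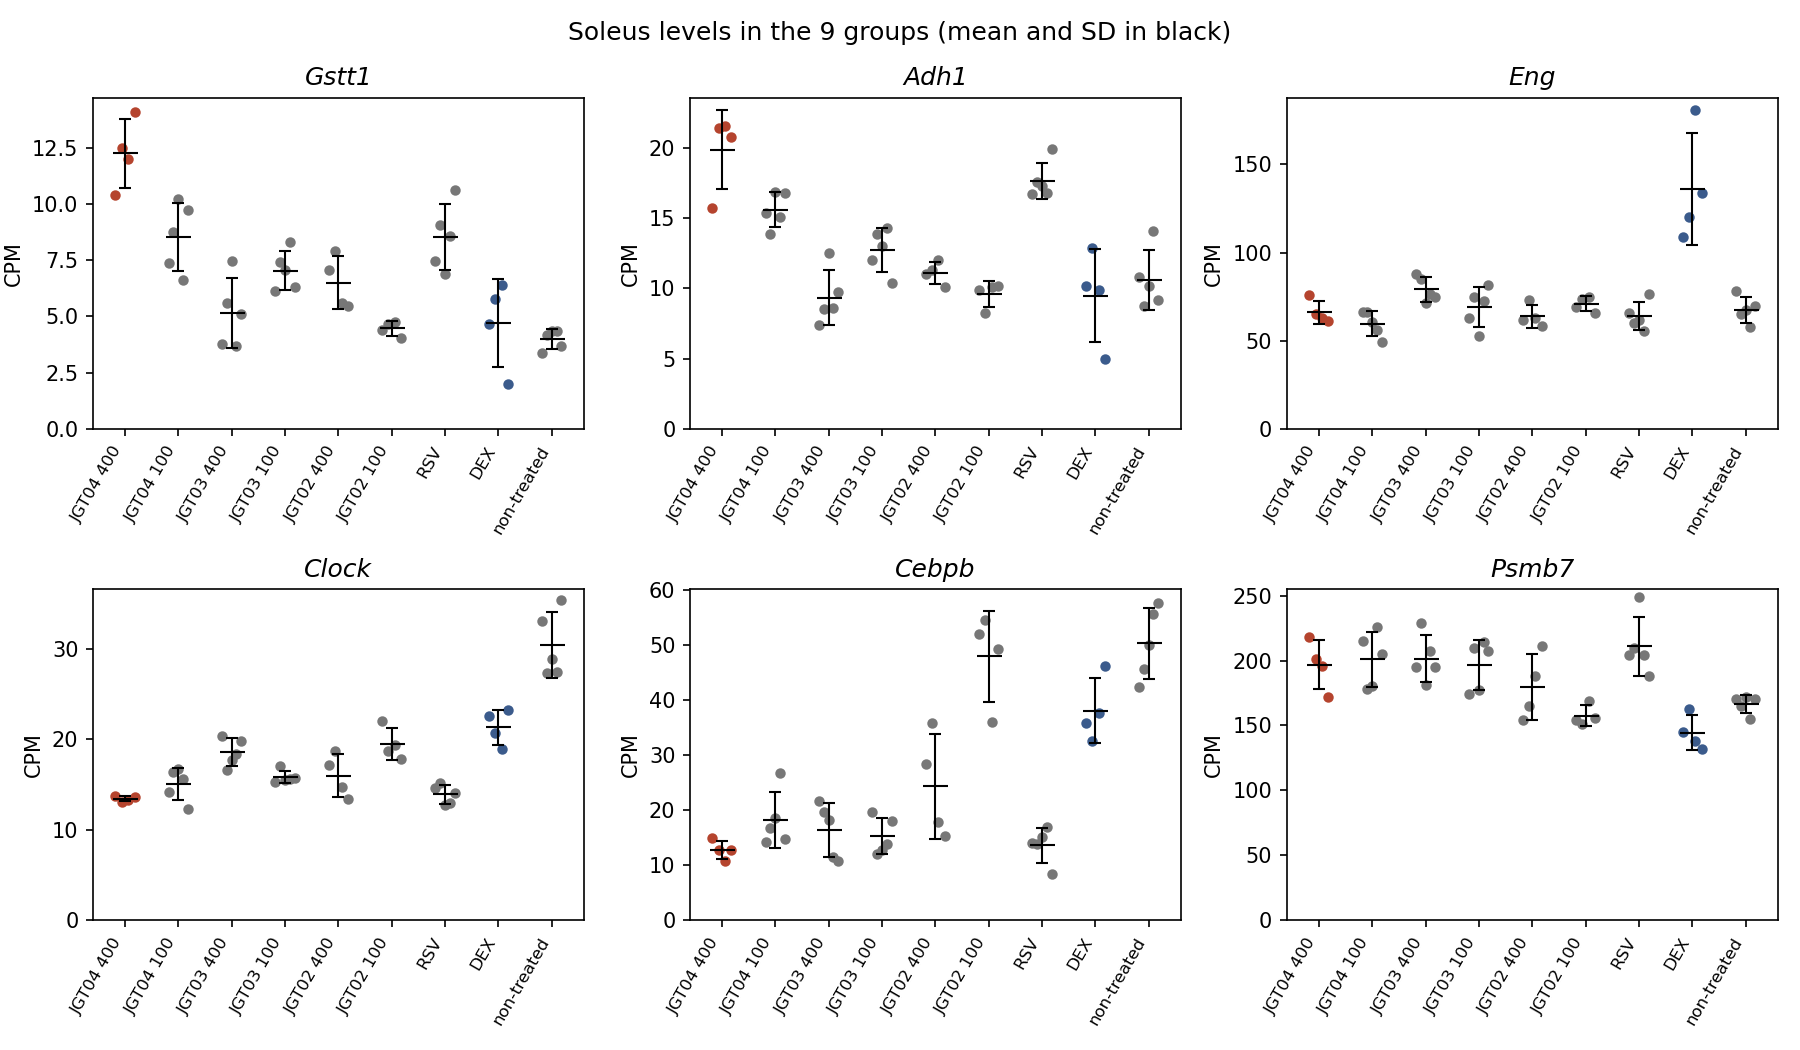
Mean CPM with SD of selected genes in the 9 soleus groups, with every library as a point. DEX soleus stands apart from all other groups for Eng, at 136 CPM against means of 59.5 to 79.1 CPM, whereas Cebpb is high in DEX, non-treated and JGT02 100 soleus.

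Non-treated soleus places these levels. JGT04 400 differed from non-treated soleus in 5415 genes (36.8%), 2706 higher (18.4%) and 2709 lower (18.4%), and DEX from non-treated soleus in 6353 (43.2%), 3534 higher (24%) and 2819 lower (19.2%), and each comparison shares libraries with the others. With all libraries in the fit these counts were 2762 and 3079. Eng averaged 66.2 ± 6.57 CPM in JGT04 400, 136 ± 31.9 CPM in DEX and 67.6 ± 7.37 CPM in non-treated soleus (n = 4, 4 and 5). Pfkfb1 in non-treated soleus averaged 20.3 ± 2.47 CPM, just below the lowest JGT04 400 library and above every DEX library. Prdx3 in non-treated soleus averaged 184 ± 5.21 CPM, nearer JGT04 400 than DEX. Gstt1 averaged 3.99 ± 0.447 CPM in non-treated soleus, a level below every JGT04 400 library and within the DEX range. Clock averaged 30.4 ± 3.61 CPM in non-treated soleus, above DEX, which was above JGT04 400. Cebpb averaged 50.3 ± 6.46 CPM and Tef 132 ± 25.2 CPM in non-treated soleus, so JGT04 400 lay farther from non-treated soleus than DEX did for both genes. Fbxo32 averaged 349 ± 108 CPM and Trim63 137 ± 14.7 CPM in non-treated soleus, and both were lower in DEX soleus, with log2 fold changes of -0.98 ± 0.14 and -0.48 ± 0.09.

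The listed order of the libraries runs beside the treatment and touches these levels. JGT04 400 libraries come later in the listed order than DEX, non-treated and JGT02 100 libraries, and within JGT02 400, the 2 to 1 mixture, mice 2 and 3 come before a change of level and mice 4 and 5 after it. Cebpb measured 28.4 and 35.8 CPM in JGT02 400 mice 2 and 3 and 17.8 and 15.3 CPM in mice 4 and 5. Lars2 measured 65.2 and 59.4 CPM in mice 2 and 3 and 131 and 105 CPM in mice 4 and 5. Eng measured 61.6 and 73.2 CPM in the earlier pair and 62.6 and 58.3 CPM in the later pair, all below the DEX range. With listed order as a term, which rests on those JGT02 400 mice, 5 genes passed between JGT04 400 and DEX. They were Gstt1 at 1.82 ± 0.36, Gpr56 at -1.05 ± 0.19, and Actg2, Rgs7bp and Susd5, which did not pass without the term. With the term, list medians were 0.02 for proteasome subunits, -0.04 for nuclear oxidative phosphorylation and -0.045 for mitochondrial ribosomal proteins. They were 0.26 for fatty acid use, -0.28 for endothelial markers and -0.03 for extracellular matrix and collagen. Of the members of these lists 0 passed with the term. All titles name 1 batch, and listed order and treatment cannot be told apart for most genes.

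Gastrocnemius of JGT04 400 and DEX mice showed a partly different response, and the difference between the muscles passed for 1278 of 15142 genes (8.44%), 640 higher (4.23%) and 638 lower (4.21%) in soleus. Without soleus DEX mouse 4, 629 genes passed, with only the groups compared 29, and with all libraries in the fit 124. The muscle difference was not fitted with listed order as a term, so the part of that order in it was not tested. Cebpb averaged 12.8 ± 1.64 CPM in JGT04 400 and 38.1 ± 5.88 CPM in DEX soleus, but 25.4 ± 3.14 CPM in JGT04 400 and 12.1 ± 1.32 CPM in DEX gastrocnemius, so it fell in soleus and rose in gastrocnemius. The log2 difference, soleus minus gastrocnemius, was -2.62 ± 0.30 (adjusted p = 1.25e-08). Gstt1 averaged 5.37 ± 0.456 CPM in JGT04 400 and 3.83 ± 0.262 CPM in DEX gastrocnemius, and its difference of 0.92 ± 0.24 between the muscles was lost without soleus DEX mouse 4. Proteasome genes differed too, since 10 of 33 were higher in soleus relative to gastrocnemius and none lower, with the same counts without soleus DEX mouse 4. In soleus alone, JGT04 400 against DEX, their median was 0.15, and 0.02 with listed order as a term. Psmb7 averaged 188 ± 9.68 CPM in JGT04 400 and 198 ± 13.1 CPM in DEX gastrocnemius, with a difference between the muscles of 0.54 ± 0.12. Of 76 nuclear oxidative phosphorylation genes 19 were higher in that difference and none lower, with Cox6b1 at 0.76 ± 0.17, but without soleus DEX mouse 4, 4 were higher and none lower. Fkbp5 fell in gastrocnemius, at 35.4 ± 4.05 CPM in JGT04 400 and 77.7 ± 5.61 CPM in DEX, and did not pass in soleus, with a difference of 0.86 ± 0.20. Ppp1r3c fell in both muscles and by more in gastrocnemius, with a difference of 1.33 ± 0.27. Mettl21c, a lysine methyltransferase of muscle, fell in gastrocnemius to 33.4 ± 4.98 CPM in JGT04 400, against 66.8 ± 24.8 CPM in DEX, and did not pass in the fit of soleus alone, with a difference of 1.69 ± 0.38. Htra4, a secreted serine protease, was higher in JGT04 400 gastrocnemius, at 13.7 ± 0.584 CPM against 6.09 ± 2.92 CPM in DEX, and did not pass in soleus, with a difference of -1.95 ± 0.44. For the vessel genes the difference between the muscles did not pass, at -0.40 ± 0.16 for Eng and -0.22 ± 0.13 for Pecam1, both of which fell in gastrocnemius as well. Slc46a3 rose in both muscles, with a difference of 0.24 ± 0.16 that did not pass, and Clock fell in both, with a difference of -0.16 ± 0.12.

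**Figure D5:**
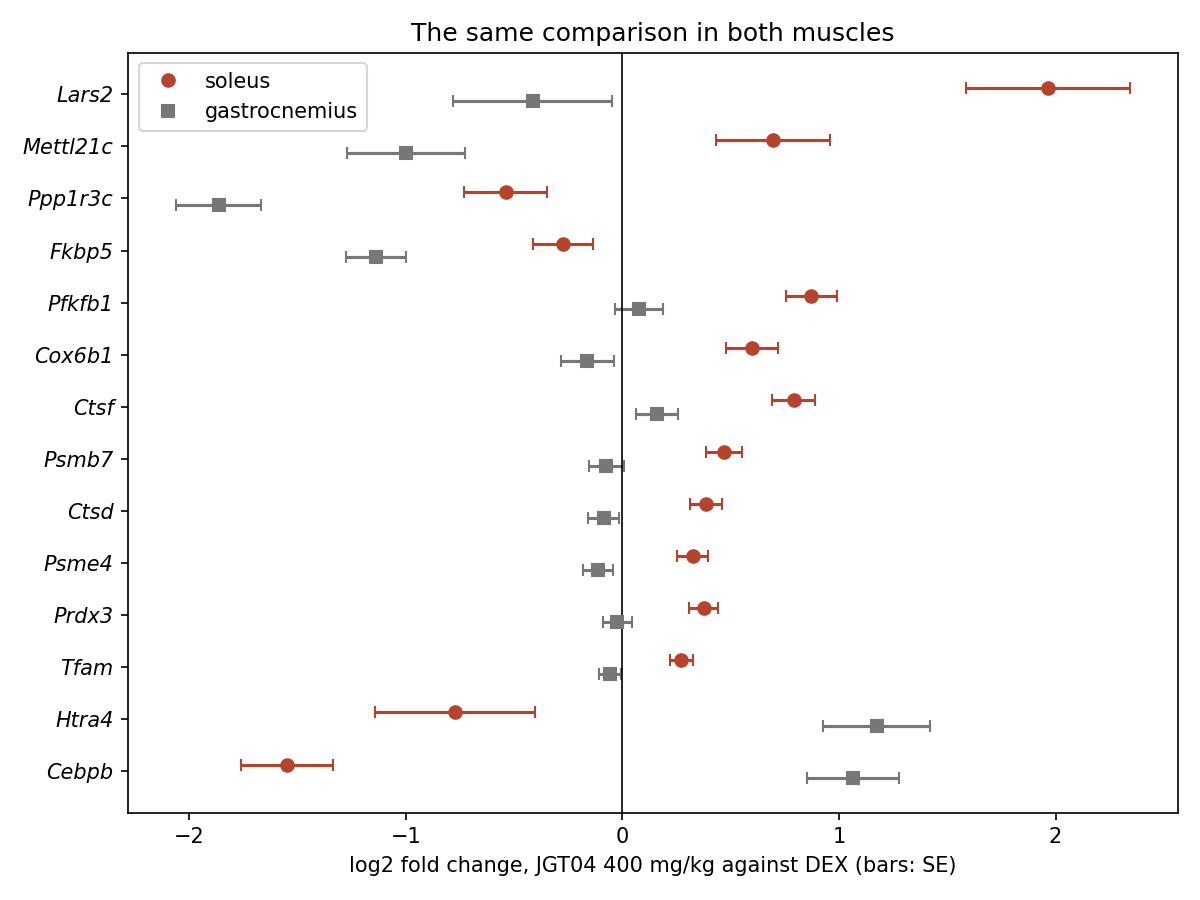
Log2 fold changes of named genes, JGT04 400 over DEX, in soleus and gastrocnemius from 1 fit of both muscles, with SE bars. Cebpb lies at -1.55 in soleus and 1.07 in gastrocnemius, whereas Psmb7 lies at 0.47 in soleus and at -0.07 in gastrocnemius.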

How the data were processed

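RNA of soleus and gastrocnemius was extracted with TRIzol, made into libraries with a directional MGIEasy kit and sequenced as paired reads, per the labels' protocols. The authors deposited 1 table of expected counts for 42807 gene symbols and 86 libraries, for which the submitters' processing notes name the aligner STAR 2.7.3a, the counter RSEM 1.3.3, the trimmer Trim Galore 0.6.5, the quality tool FastQC 0.11.9 and the build GRCm38. Annotation, counting strand and filters are not given in the sources used here, so antisense genes, which overlap exons of 41 named genes, cannot be told apart from them. Of the values 92% were whole numbers, and all were rounded before testing.

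The quasi-likelihood test of edgeR 4.0.16 (R 4.3.3, limma 3.58.1) was run after filterByExpr and TMM scaling on 41 of 43 soleus libraries in 9 groups, leaving out JGT02 100 mouse 5 and JGT02 400 mouse 1, which stood apart from their groups. The muscle difference is an interaction contrast in 1 fit of 83 libraries. P values were adjusted by Benjamini-Hochberg over all genes tested, with a threshold of 0.05, and all printed adjusted p values and SEs come from these fits. DESeq2 1.42.0 was an alternative. On simulated data of 14576 genes, 63.6% of genes changed 1.5-fold, 80.6% of those changed 2-fold and 90.8% of those changed 4-fold were recovered, and 0.0417% of unchanged genes were called. The simulated counts held no library apart from its group and no shift by listed order. These rates therefore do not carry over to the real libraries, where both occur. Intervals cover the spread between mice. Libraries of 1 group differed by more than counting noise, at least 1.34 times its median, and each counted as 1 replicate.

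The numbers of mice are the same in both muscles by label, so the muscle difference was also fitted with the mouse as a block. Between JGT04 400 and DEX the numbers name different mice, and deviations of same-numbered libraries correlated at -0.154, 0.0523, 0.0391 and -0.114. Between the muscles, same-numbered libraries correlated at 0.19, -0.208, -0.133 and 0.0154 in DEX and -0.0134, 0.122, 0.145 and 0.0831 in JGT04 400. Differently numbered pairs reached 0.271 and 0.185, so the pairing of the muscles rests on the labels.

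Genes named are the 12 largest rises and falls that passed, with a mean of at least 5 CPM, no overlap and no predicted name, a panel of 16 genes, up to 3 members per list and direction, and 5 per direction in the other comparisons. The text gives 102 genes of this pool, picked once their values were known, and a few others are not reported here. The groups, 41 gene lists and tests were chosen with earlier results of these data known. Positions come from the annotation of GRCm38, and promoter windows from RefSeq on GRCm38.p6, 250 bases before to 50 after each start. Shared sequence is the share of a gene's 31-base words found in other genes. It was over 10% for 14 named genes. Those with no share given above were Itgam at 68.1%, Ctsd at 33.2%, H2-DMb1 at 31.4% and Dnaja1 at 13.4%. The myosin genes, also without one above, were Myh7 at 22.9%, Myh2 at 32.8%, Myh1 at 37.9% and Myh4 at 30.4%.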

Additional observations from a re-analysis of the deposited data

Results flagged for a closer look

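Single libraries that lay apart from the other 3 of their group were looked for in 228 groups of values, and 30 were found. The cutoff flags about 1 in 20 where sets are not picked by their values. Many of these genes were picked by their values in the same libraries, so that rate cannot be used here. Of the 30, 22 were DEX mouse 4. Its levels stood above the rest of DEX soleus for Cd44 at 99.4 CPM, Adamts9 at 26.8, Junb at 145, Vcan at 28.8, Nmrk2 at 195, Il4ra at 62.6, Fn1 at 239, Fxyd5 at 77.8, Col4a2 at 191, Pdgfra at 13.5 and Hsp90aa1 at 262 CPM. It was also the high library for Chil3 at 71.9, Itgam at 28.1, Ccl2 at 29, Mt2 at 258 and Ankrd1 at 657 CPM, and for the summed markers of macrophages at 571, MHC class II at 127 and neutrophils at 6.99 CPM. It was the low library for Klhl33 at 2.87, Prdx3 at 114 and Ubr2 at 50.6 CPM.

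Other libraries apart from their group were few. JGT04 400 mouse 1 was low for Adh1 at 15.7 CPM and high for Gstt2 at 8.48 CPM. JGT04 400 mouse 2 was high for Arntl at 1.93 CPM, mouse 3 for the summed Schwann cell markers at 522 CPM and mouse 4 for Ctsd at 591 CPM. DEX mouse 1 was high for Ctsd at 470 and Mest at 7.31 CPM, and DEX mouse 3 for Klf4 at 55.5 CPM.

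For 36 of the 102 named genes the response to JGT04 400 differed between soleus and gastrocnemius in the interaction test, which was not fitted with listed order as a term. Log2 differences above 0, soleus minus gastrocnemius, were 2.38 for Lars2, 1.69 for Mettl21c, 1.33 for Ppp1r3c, 1.10 for Igf1, 0.92 for Gstt1, 0.86 for Fkbp5, 0.79 for Pfkfb1, 0.63 for Ctsf and 0.61 for Adh1. For genes of protein breakdown they were 0.54 for Psmb7, 0.44 for Psme4, 0.44 for Map1lc3a and 0.47 for Ctsd. For mitochondrial and metabolic genes they were 0.56 for Ndufa9, 0.49 for Sdhc, 0.76 for Cox6b1, 0.35 for Mrpl9, 0.33 for Tfam, 0.40 for Prdx3, 0.45 for Slc25a20, 0.38 for Gyg and 0.54 for Fdft1, and Hspb6 stood at 0.57. Differences below 0 were -3.36 for Ccl2, -3.31 for Itgam, -3.12 for Ankrd1, -2.62 for Cebpb, -2.23 for H2-DMb1, -1.95 for Htra4, -1.82 for Cd44, -1.62 for Adamts9, -1.58 for Junb, -1.22 for Il4ra, -0.77 for Slc2a1, -0.51 for Trim63 and -0.45 for Sirt1. Without soleus DEX mouse 4 the difference was lost for Gstt1, Adh1, Cd44, Adamts9, Junb, Il4ra, Trim63, Igf1, Sirt1, Fdft1, Map1lc3a, Slc25a20, Gyg, Slc2a1, Itgam, Ccl2, H2-DMb1 and Ankrd1.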

How the results depend on the processing

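Of the 102 named genes 82 passed between JGT04 400 and DEX soleus, and all 82 had the same direction under every alternative tried. With DESeq2's size factors 82 still passed, with no filter on low counts 81, with DESeq2 81, with all libraries in the fit 43, with only the groups compared 7 and with listed order as a term 2. The count of changed genes was 3261, and it was 678 with all libraries, 38 with only the groups compared, 5 with listed order as a term and 625 with only the groups compared and no DEX mouse 4, an alternative chosen after seeing the data. On leaving out 1 library it ranged from 1481 (DEX mouse 4) to 3791. The count against JGT03 400 was 534, with 2 when all libraries were used, 186 with only the groups compared and 76 to 945 on leaving out 1 library. Against non-treated soleus it was 5415, with 2762 when all libraries were used. DEX against non-treated gave 6353, with 3079 and 4129 under those 2 settings. The muscle difference gave 1278, with 769 unfiltered, 124 with all libraries, 29 with only the groups compared and 629 (without soleus DEX mouse 4) to 1856 on leaving out 1 library. The dose comparison gave 0 under each setting. The cause of these moves was not tested.

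Genes that did not pass turned sign in a few cases. With listed order as a term Klf15 was -0.026, Pdk4 0.51, Mstn 0.42, Myh2 0.15 and Htra4 0.33. On leaving out 1 library Foxo1 ranged from -0.0156 to 0.13, Klf15 from -0.0835 to 0.19, Pdk4 from -0.26 to 0.21, Myh7 from -0.23 to 0.0802, Myh2 from -0.24 to 0.0341 and Myh1 from -0.0313 to 0.27.

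With mouse number as a replicate block, which does not pair different mice of the treatment groups, 3023 genes passed, 1235 higher and 1788 lower, and 81 of the 82 named genes kept their call. For the muscle difference, where the mouse is shared by label, 946 genes passed with the block, 489 higher and 457 lower. Named genes that lost that call with the block were Cd44, Junb, Il4ra, Igf1, Mrpl9, Itgam, Ccl2, H2-DMb1 and Ankrd1.

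In the simulated data, with 4 mice in each group compared, 63.6% of 1.5-fold, 80.6% of 2-fold and 90.8% of 4-fold changes were recovered. Smaller changes were not simulated, and these rates do not carry over to the real libraries. Genes near 1 CPM rest on few reads.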

Other observations

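Adipocyte markers were the cell type list with most differences between the extracts at 400 mg/kg. Of 13 measured, 4 were higher in JGT04 400 than in JGT03 400 soleus and none lower, with a median log2 difference of 1.24, and 247 of 14696 genes (1.68%) were higher over all. On leaving out 1 library the count ranged from 0, without JGT04 400 mouse 4 or JGT03 400 mouse 1, to 11 without JGT03 400 mouse 3, and the median from 1.09 to 1.75. Mest, a hydrolase of the mesodermal lineage that rises with fat cell growth, averaged 13.8 ± 7.85 CPM in JGT04 400 soleus and 2.74 ± 2.06 CPM in JGT03 400 soleus, a log2 difference of 2.33 ± 0.50 that did not pass without JGT04 400 mouse 4. Igf1, the growth factor, averaged 23.8 ± 5.5 CPM in JGT04 400 soleus and 12.3 ± 5.96 CPM in JGT03 400 soleus, a log2 difference of 0.95 ± 0.26 that did not pass on leaving out 7 of the 9 libraries in turn. Foxo1 passed as higher at 0.28 ± 0.08, but not on leaving out 6 of the 9 in turn.

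A few named genes that did not pass varied widely among the JGT04 400 mice. Myh4, the fast glycolytic myosin, measured 168, 2200, 880 and 301 CPM in JGT04 400 soleus and 898, 773, 1950 and 1210 CPM in DEX soleus. Mfng, a glycosyltransferase of Notch receptors, measured 11.7, 11.7, 16 and 21.8 CPM in JGT04 400 soleus, against 9.02 to 12.0 CPM in DEX soleus, and did not pass. Irs1, the insulin receptor substrate, had a log2 fold change of -0.39 ± 0.18 and did not pass either.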
